A study of Homo sapiens with 12 samples.

Results

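The genes described here are 9 targets of the transcription factor NRF2, namely NQO1, GCLM, GCLC, TXNRD1, HMOX1, SLC7A11, SRXN1, AKR1B10 and AKR1C3. Every probe with 1 of these names was taken from an Illumina HumanHT-12 v4 table, which gave 13 of 47228 gene probes, and 12 of the 13 passed the detection filter with 24207 probes of the whole table. The RNA was from human pancreatic ductal adenocarcinoma cells of the lines MIA PaCa-2 and Capan-1. Both lines carried a puromycin-selected, doxycycline-inducible PLKO.1 vector with a scrambled hairpin (shCtrl) or a hairpin against the focal adhesion kinase FAK (sh1209 or sh1319), and the comparison asked which transcripts changed after loss of FAK. All 6 groups, shCtrl included, received doxycycline at 50 ng/ml over 96 hours, with puromycin at 3.5 ug/ml in MIA PaCa-2 and 1.5 ug/ml in Capan-1. Each group had 2 arrays, 12 in all on 1 chip. Whether these were separate cultures, and whether the transduced cells were clones or pools, is not given in the sources used here, so p-values measure the spread between arrays, which may be technical.

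NRF2, encoded by NFE2L2, is held at a low level by KEAP1, an adaptor that presents it to a ubiquitin ligase. When oxidants or electrophiles modify KEAP1, NRF2 accumulates, pairs with a small MAF protein and binds antioxidant response elements near genes for glutathione synthesis, thioredoxin reduction and detoxification, while BACH1 competes for the same elements. The pathway is known for its activity in pancreatic cancer cells, where it supports redox balance.

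The antioxidant response element has the core TGACNNNGC, read as GCNNNGTCA on the other strand. RefSeq promoter windows of 300 bases, from 250 bases before to 50 bases after a start site (GRCh38.p14), were matched for 6 of the 9 genes, with 8 windows, and HMOX1, SLC7A11 and AKR1B10 were not matched. The core was found on either strand in 3 of these 8 windows, 1 of GCLM and both of TXNRD1, and in 13.3% of all 35116 windows. It was not found in the windows of NQO1, GCLC, SRXN1 and AKR1C3, and bases outside the windows were not searched. The first 260 bases of 4 windows are shown because the probes of NQO1, GCLM and TXNRD1 fell together with sh1319 in MIA PaCa-2, and capitals mark the core. They lie at chr16:69726551-69726810 on the minus strand (NQO1), chr1:93909421-93909680 on the minus strand (GCLM) and, on the plus strand, chr12:104215529-104215788 and chr12:104286782-104287041 (TXNRD1), and each is written 5′ to 3′ along its gene.
NQO1: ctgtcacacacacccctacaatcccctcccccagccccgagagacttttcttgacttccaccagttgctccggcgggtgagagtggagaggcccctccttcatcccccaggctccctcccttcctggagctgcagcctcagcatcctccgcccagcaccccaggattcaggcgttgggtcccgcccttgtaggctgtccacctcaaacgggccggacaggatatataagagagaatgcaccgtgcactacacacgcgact
GCLM: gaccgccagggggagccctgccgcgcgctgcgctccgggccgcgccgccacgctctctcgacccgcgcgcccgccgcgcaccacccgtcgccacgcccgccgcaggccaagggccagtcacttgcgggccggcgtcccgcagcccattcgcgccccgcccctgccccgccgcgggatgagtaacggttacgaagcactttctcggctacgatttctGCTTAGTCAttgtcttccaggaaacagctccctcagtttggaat
TXNRD1, first start site: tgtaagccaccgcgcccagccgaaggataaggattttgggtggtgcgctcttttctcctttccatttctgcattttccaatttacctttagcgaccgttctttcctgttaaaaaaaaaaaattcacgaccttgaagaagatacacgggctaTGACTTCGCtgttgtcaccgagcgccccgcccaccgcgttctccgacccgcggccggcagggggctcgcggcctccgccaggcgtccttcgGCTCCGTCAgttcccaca
TXNRD1, second start site: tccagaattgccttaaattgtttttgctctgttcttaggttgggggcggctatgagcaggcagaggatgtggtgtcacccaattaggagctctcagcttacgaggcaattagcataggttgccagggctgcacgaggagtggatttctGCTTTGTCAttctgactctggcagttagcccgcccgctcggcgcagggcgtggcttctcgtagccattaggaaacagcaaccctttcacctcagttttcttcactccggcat
The core of GCLM began 34 bases before the start site. Those of TXNRD1 began 99 and 8 bases before the first start site and 102 bases before the second. A match of these letters is a description of the window and no measurement of binding.

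The arrays were alike in depth, with median deposited intensities of 87.7 to 97.0 and 16259 to 19814 of 47228 probes detected at p under 0.05. Across probes, which are not independent, replicate arrays correlated at 0.991 to 0.994. Capan-1 had the epithelial and ductal markers EPCAM, CDH1, KRT19, MUC1 and CEACAM6 on all 6 arrays, whereas MIA PaCa-2 had CDH1 and CEACAM6 on none and KRT8, KRT18 and MUC1 on all 6. VIM, a mesenchymal marker, was detected on all 12 arrays, at mean normalized log2 intensities of 13.20 (MIA PaCa-2) and 5.88 (Capan-1), and CDH2, another, on all 6 Capan-1 arrays and no MIA PaCa-2 array. Of the markers of fibroblasts and endothelium, PDGFRB and CDH5 were detected on no array, LUM on 2, DCN on 1 and VWF on 2 Capan-1 arrays, and PECAM1 on 2 MIA PaCa-2 and 5 Capan-1 arrays, at no more than 5.36. PTK2, which encodes FAK, was measured by probe 450253 at 9.45 and 9.46 with shCtrl, 7.28 and 7.14 with sh1209 and 6.92 and 7.03 with sh1319 in MIA PaCa-2. In Capan-1 PTK2 was at 10.35 and 10.17 with shCtrl, 9.66 and 9.63 with sh1209 and 8.48 and 8.49 with sh1319. Every FAK hairpin array was below both shCtrl arrays of its line, and PTK2 was left at 65.4% of control with sh1209 in Capan-1 against 17.9% to 29.2% in the other 3 pairs. The dimmer PTK2 probe, 2680750, lay between 4.54 and 6.03, with changes between -0.46 and 0.31.

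With control hairpin, 10 of the 12 NRF2 target probes differed between the lines, 8 lower and 2 higher in Capan-1. Over all tested probes 42.1% differed, 22.5% lower and 19.6% higher. The 8 lower probes were those of NQO1, GCLM, TXNRD1, HMOX1 and SRXN1, and the 2 higher were AKR1B10 and AKR1C3. These 2 were detected on Capan-1 arrays alone. They passed the detection filter only through the line where they are high, so their direction was set by the filter. The median difference of the 12 probes was -1.21 on the log2 scale against -0.04 over all probes. In bulk RNA, fewer cells with a transcript and less of it per cell cannot be told apart.

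**Figure D1:**
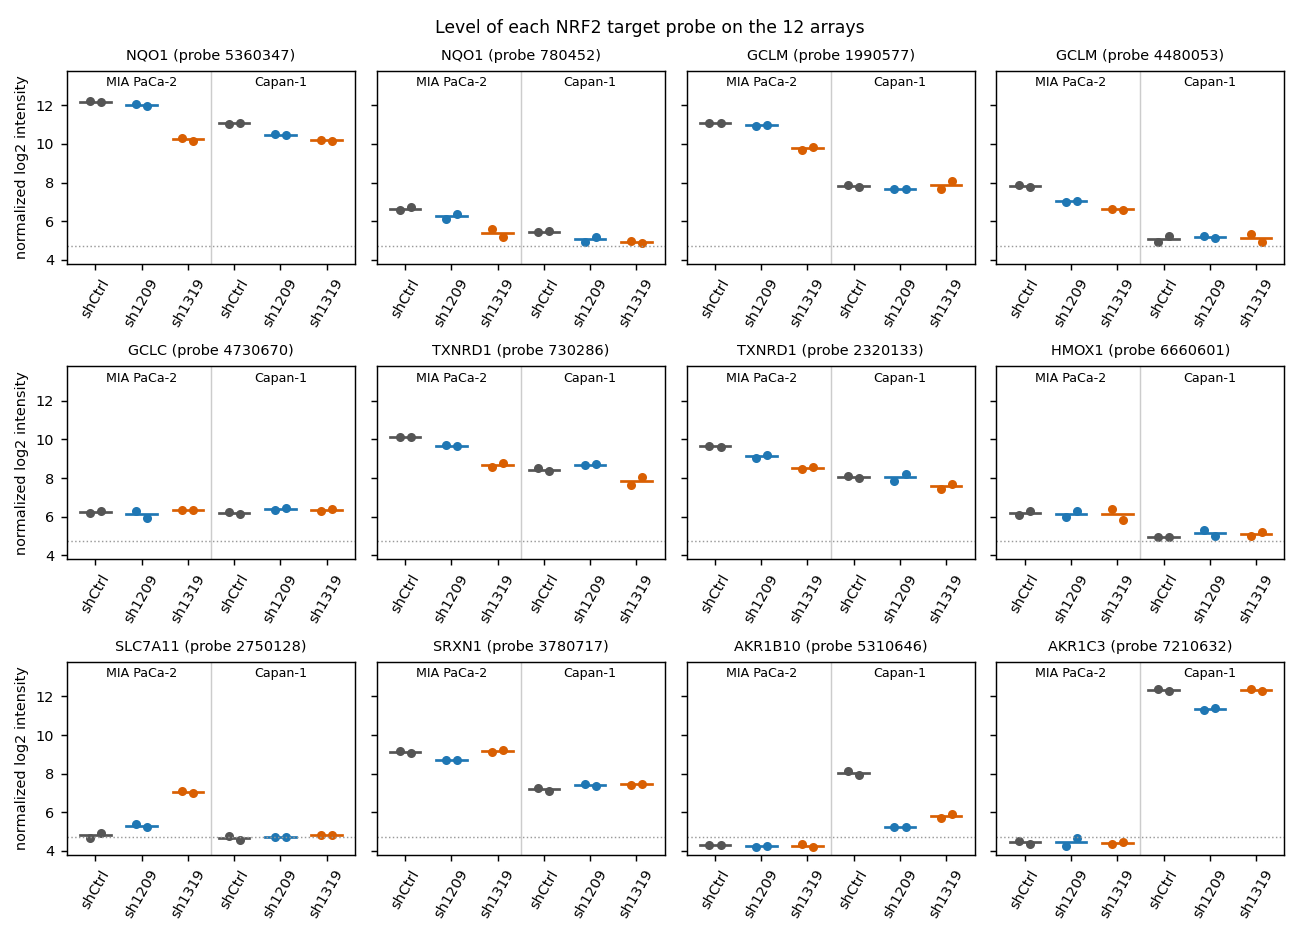
Normalized log2 intensity of the 12 tested probes of the 9 genes in the 6 groups; points are the 2 arrays of a group, short lines their mean, and the dotted line the highest detection floor of an array, 4.74. NQO1 is lowest with sh1319 in both lines (10.14 to 10.33 on its brighter probe), SLC7A11 stands highest, at 6.99 and 7.11, in MIA PaCa-2 with sh1319, while AKR1B10 and AKR1C3 were detected on none of the MIA PaCa-2 arrays.

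NQO1 encodes a quinone reductase that detoxifies quinones with NADH or NADPH and is the standard readout of NRF2. On its brighter probe, 5360347, the deposited intensities in MIA PaCa-2 were 5329 and 4750 with shCtrl, 3819 and 4349 with sh1209 and 1306 and 1448 with sh1319. After normalization the log2 levels were 12.24 and 12.15, 12.08 and 11.95, and 10.33 and 10.14. The sh1319 arrays lay far below the rest, and the sh1209 arrays lay just below shCtrl. The change with sh1319 was -1.96 ± 0.12 (SE, adjusted p = 3.3e-07), which left 25.7% of the control level. With sh1209 it was -0.18 ± 0.12 (adjusted p = 0.34), with a 95% interval of -0.43 to 0.07.

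In Capan-1 the same NQO1 probe was at 11.06 and 11.08 with shCtrl, 10.50 and 10.46 with sh1209 and 10.23 and 10.17 with sh1319. Both hairpins lay below control without overlap. The change was -0.59 ± 0.12 with sh1209 (adjusted p = 0.0047) and -0.87 ± 0.12 with sh1319 (adjusted p = 0.00059). Under median scaling the former was -0.48 and missed the threshold. The difference between the hairpins was -1.78 ± 0.12 in MIA PaCa-2 (adjusted p = 8.8e-07) and -0.28 ± 0.12 in Capan-1 (adjusted p = 0.17, 95% interval -0.53 to -0.02). Averaged over both hairpins, the response of NQO1 in MIA PaCa-2 minus that in Capan-1 was -0.34 ± 0.14 (adjusted p = 0.14). Without background correction, the hairpin difference in Capan-1 (-0.26) and this difference between the lines (-0.34) passed in limma (adjusted p = 0.019 and 0.012). In the order of the 6 levels, MIA PaCa-2 shCtrl and sh1209 stood highest and did not differ beyond their spread, followed by Capan-1 shCtrl. The 3 lowest groups were Capan-1 sh1209 and then sh1319 of MIA PaCa-2 and of Capan-1. The steps among these 3 groups did not pass the test (0.24 and 0.04, adjusted p = 0.12 and 0.83).

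The dimmer NQO1 probe, 780452, gave 6.55 and 6.71 with shCtrl, 6.12 and 6.39 with sh1209 and 5.57 and 5.20 with sh1319 in MIA PaCa-2. In Capan-1 it gave 5.41 and 5.51, 4.92 and 5.20, and 4.96 and 4.85. It was lower than control in all 4 pairs, as the brighter probe was. Its change passed the test with sh1319 in MIA PaCa-2 (-1.25 ± 0.16, adjusted p = 0.00013) and in Capan-1 (-0.56 ± 0.16, adjusted p = 0.037). The latter call was lost without any 1 of the 4 shCtrl and sh1319 arrays of Capan-1, at values of -0.61 to -0.50. It was also lost without background correction (-0.19), under median scaling (-0.45), with every probe tested and with the replicate block. Over the 12 arrays, centred within each line, the NQO1 probes correlated at 0.94.

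GCLM and GCLC encode the modifier and the catalytic subunit of glutamate-cysteine ligase, the first enzyme of glutathione synthesis. Probe 1990577 of GCLM was at 11.09 and 11.06 with shCtrl, 10.93 and 11.00 with sh1209 and 9.68 and 9.86 with sh1319 in MIA PaCa-2. The sh1319 arrays were below all others of the line, at a change of -1.31 ± 0.14 (adjusted p = 3.7e-05), or 40.4% of control. With sh1209 the change was -0.11 ± 0.14 (adjusted p = 0.66), and the difference between the hairpins was -1.19 ± 0.14 (adjusted p = 8.1e-05). In Capan-1 this probe was at 7.89 and 7.76 with shCtrl, 7.66 and 7.66 with sh1209 and 7.69 and 8.09 with sh1319, and the sh1319 arrays lay on both sides of control. The changes there were -0.17 (95% interval -0.47 to 0.14) and 0.06 (95% interval -0.24 to 0.37).

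The other GCLM probe, 4480053, gave 7.88 and 7.78, 6.99 and 7.06, and 6.65 and 6.58 in MIA PaCa-2, so that on this probe both hairpins lay below control. It fell with sh1209 (-0.81 ± 0.15, adjusted p = 0.0035) as well as with sh1319 (-1.22 ± 0.15, adjusted p = 0.00013), so the GCLM probes disagree on sh1209 in this line. Capan-1 arrays were between 4.90 and 5.34, close to the detection floor, and neither hairpin passed the test. The GCLM probes correlated at 0.68 over the 12 arrays, centred within each line. The difference in response between the lines passed the test on both, at -0.66 ± 0.17 (adjusted p = 0.025) and -1.10 ± 0.19 (adjusted p = 0.0025), with the larger fall in MIA PaCa-2. On probe 1990577 that call was lost without any 1 of the 4 shCtrl arrays, at -0.72 to -0.60. GCLM was also the member with the largest difference between the lines among those detected in both, where Capan-1 minus MIA PaCa-2 gave -3.25 ± 0.14 and -2.76 ± 0.15 (adjusted p = 3e-09 and 3.2e-08).

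GCLC did not follow GCLM. Its probe 4730670 lay between 5.95 and 6.44 on all 12 arrays, and in MIA PaCa-2 the sh1209 arrays overlapped shCtrl. In the 3 other pairs both hairpin arrays lay just above both controls. The changes in the 4 pairs were between -0.13 and 0.21, each with a standard error of 0.13, and no comparison passed the test. Its other probe, 3840537, was detected on 0 of the 12 arrays, with deposited intensities of 79.2 to 91.9, and was not tested.

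TXNRD1 encodes the cytosolic thioredoxin reductase, a selenoprotein that uses NADPH to reduce thioredoxin. In MIA PaCa-2 probe 730286 was at 10.11 and 10.11 with shCtrl, 9.70 and 9.67 with sh1209 and 8.56 and 8.80 with sh1319. Probe 2320133 was at 9.67 and 9.64, 9.05 and 9.21, and 8.48 and 8.60. On both probes the arrays fell into the order shCtrl, sh1209, sh1319 without overlap. With sh1319 the changes were -1.43 ± 0.14 and -1.11 ± 0.14 (adjusted p = 2.3e-05 and 0.00015), or 37.1% and 46.2% of control. With sh1209 they were -0.43 ± 0.14 and -0.52 ± 0.14 (adjusted p = 0.063 and 0.025), and the call on 2320133 was lost under median scaling (-0.58) and without either shCtrl array or the first sh1209 array (-0.54 to -0.45). The difference between the hairpins passed the test on both probes (-1.004 and -0.59, adjusted p = 0.00036 and 0.011). On 2320133 that call was lost under median scaling (-0.45) and without the first sh1319 array (-0.53) or the second sh1209 array (-0.51).

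In Capan-1 TXNRD1 probe 730286 was at 8.50 and 8.34 with shCtrl, 8.66 and 8.72 with sh1209 and 7.66 and 8.05 with sh1319. Probe 2320133 was at 8.11 and 7.998, 7.87 and 8.23, and 7.46 and 7.68. The sh1319 arrays were lowest on both probes, while sh1209 overlapped control on 1 probe and lay above it on the other. The changes with sh1319 were -0.56 ± 0.14 and -0.48 ± 0.14 (adjusted p = 0.023 and 0.045). The first was lost under median scaling (-0.32) and without either shCtrl array or the first sh1319 array (-0.64 to -0.37). The second was lost without any 1 of 10 arrays (-0.60 to -0.37), which were all but the sh1209 arrays of Capan-1. It was also lost under median scaling (-0.23), with every probe tested, with the replicate block and in a fit of Capan-1 alone. On probe 730286 the hairpins differed by -0.84 ± 0.14 (adjusted p = 0.0032), and on 2320133 a difference of -0.48 ± 0.14 did not pass (adjusted p = 0.053). The change in MIA PaCa-2 minus that in Capan-1 was -0.78 ± 0.18 and -0.58 ± 0.17 (adjusted p = 0.012 and 0.049). The call at -0.78 was lost without the second Capan-1 shCtrl array (-0.70). The call at -0.58 was lost without any 1 of 10 arrays (-0.63 to -0.49), all but the first Capan-1 sh1209 and sh1319 arrays. Median scaling (-0.79), testing every probe, the replicate block and array weights lost it too.

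**Figure D2:**
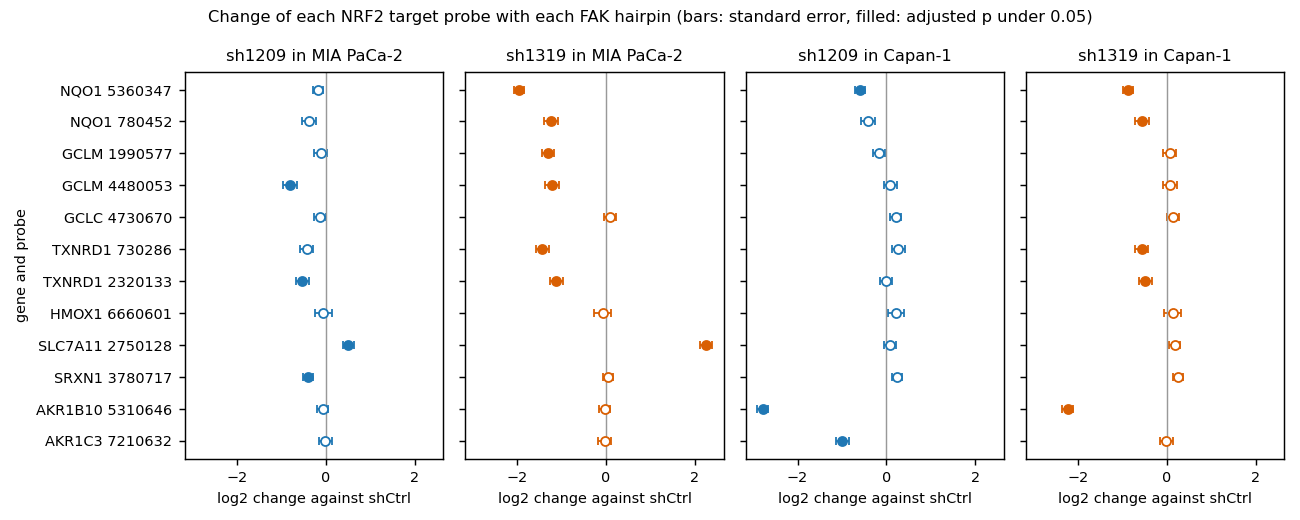
Log2 change of each probe against shCtrl of the same line with each hairpin; points are fitted changes, bars standard errors, and filled points passed an adjusted p of 0.05. With sh1319 in MIA PaCa-2 NQO1, GCLM and TXNRD1 lie between -1.96 and -1.11 and SLC7A11 at 2.25, whereas in Capan-1 the largest changes are those of AKR1B10, -2.78 and -2.22.

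SLC7A11 encodes the transport subunit of the cystine and glutamate exchanger xCT, which supplies cysteine for glutathione. Its direction was opposite to that of NQO1, GCLM and TXNRD1, and probe 2750128 was at 4.66 and 4.93 with shCtrl, 5.39 and 5.23 with sh1209 and 7.11 and 6.99 with sh1319 in MIA PaCa-2. Its deposited intensities there were 94.2 and 100.7, 102.5 and 109.3, and 189.2 and 215.8. All 4 FAK hairpin arrays were above both controls, of which 1 array had the probe detected. The rise was 0.51 ± 0.13 with sh1209 (adjusted p = 0.019) and 2.25 ± 0.13 with sh1319 (adjusted p = 3e-07, 4.77-fold), and the hairpins differed by 1.74 ± 0.13 (adjusted p = 2.8e-06). The call with sh1209 was lost under median scaling (0.42), without background correction (0.17), in a fit of MIA PaCa-2 alone (0.51) and without the first shCtrl or the first sh1209 array (0.37 and 0.43).

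In Capan-1 SLC7A11 stayed between 4.54 and 4.84, around the detection floor, with changes of 0.08 (95% interval -0.21 to 0.37) and 0.18 (95% interval -0.11 to 0.46). The difference in response between the lines was 1.25 ± 0.16 (adjusted p = 0.00035), and it passed in every alternative limma fit that tested the probe. Over the 12 arrays, centred within each line, SLC7A11 correlated with the brighter NQO1 probe at -0.93. The points share groups and chip, so this describes the pattern in the 12 arrays.

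SRXN1 encodes sulfiredoxin, which repairs overoxidised peroxiredoxins. In MIA PaCa-2 it was at 9.15 and 9.09 with shCtrl, 8.72 and 8.70 with sh1209 and 9.12 and 9.22 with sh1319 (probe 3780717). Unlike NQO1, GCLM and TXNRD1, its lowest group was sh1209, at -0.41 ± 0.11 (adjusted p = 0.026), while sh1319 overlapped control at 0.05 ± 0.11 (adjusted p = 0.81). The sh1209 call was lost without any 1 of the 4 arrays (-0.44 to -0.38), under median scaling (-0.40) and in a fit of MIA PaCa-2 alone (-0.41). The difference between the hairpins was 0.46 ± 0.11 (adjusted p = 0.011), and was lost without the second sh1209 array (0.45) or the second sh1319 array (0.41). The Capan-1 levels were 7.27 and 7.11, 7.49 and 7.37, and 7.41 and 7.47, and changes of 0.24 and 0.25 did not pass.

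HMOX1 encodes heme oxygenase, the inducible enzyme that degrades heme and a gene under strong control by BACH1. Probe 6660601 lay between 5.84 and 6.39 in MIA PaCa-2 and between 4.95 and 5.33 in Capan-1, and the arrays of the lines did not overlap. With shCtrl, Capan-1 minus MIA PaCa-2 gave -1.24 ± 0.19 (adjusted p = 0.00019). Within a line the groups overlapped or lay close together, and the 4 changes of -0.08 to 0.22, with a standard error of 0.19, did not pass.

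AKR1B10 and AKR1C3 are aldo-keto reductases that reduce carbonyls with NADPH, and AKR1C3 also reduces steroids and prostaglandins. AKR1B10 (probe 5310646) was detected on none of the MIA PaCa-2 arrays, where it measured 4.20 to 4.35. Capan-1 arrays had it at 8.11 and 7.92 with shCtrl, 5.22 and 5.25 with sh1209 and 5.68 and 5.90 with sh1319. Its deposited intensities were 321.3 and 314.6, 108.2 and 125.1, and 128.0 and 159.2. With control hairpin the level was thus at least 9.89-fold higher in Capan-1, a bound taken against the lowest detected signal of the MIA PaCa-2 arrays. Both hairpins brought it down without overlap, with changes of -2.78 ± 0.12 for sh1209 and -2.22 ± 0.12 for sh1319 (adjusted p = 5.4e-08 and 2e-06), which left 14.6% and 21.4% of control. These were the largest falls among the members in either line and passed in every alternative limma fit that tested the probe. The hairpins differed by 0.56 ± 0.12 (adjusted p = 0.014), a call lost under median scaling (0.62) and without either sh1209 array or the second sh1319 array (0.45 to 0.57).

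AKR1C3 (probe 7210632) was likewise detected on none of the MIA PaCa-2 arrays. Capan-1 arrays had it at 12.38 and 12.28 with shCtrl, 11.27 and 11.40 with sh1209 and 12.37 and 12.27 with sh1319. The sh1209 arrays were below the other 4, which overlapped. With control hairpin the level was at least 197-fold higher in Capan-1 than in MIA PaCa-2. The change in Capan-1 was -0.99 ± 0.14 with sh1209 (adjusted p = 0.00078) and -0.01 ± 0.14 with sh1319 (adjusted p = 0.99, 95% interval -0.32 to 0.31), and the hairpins differed by 0.99 ± 0.14 (adjusted p = 0.0012). Probe sequences were not used here, and AKR1C genes are similar in sequence, so the signal may include other members of that family. The AKR1C2 probe 5340129, given for this reason after its values were seen, changed by -0.19 with sh1209 and by 1.06 with sh1319 in Capan-1, of which the latter passed.

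The order of the groups by level separated the lines for GCLM, SRXN1 and HMOX1, whose 3 MIA PaCa-2 groups all stood above the 3 Capan-1 groups, with a step between them that passed the test (adjusted p between 4e-07 and 0.0012). Below that step no Capan-1 group of these genes differed from its neighbour beyond the spread. TXNRD1 probe 730286 mixed the lines, since MIA PaCa-2 with sh1319 stood between Capan-1 with sh1209 and Capan-1 with shCtrl and passed the test against neither (adjusted p = 0.96 and 0.18). On TXNRD1 probe 2320133 the 3 MIA PaCa-2 groups (means 9.65, 9.13 and 8.54) stood above those of Capan-1 (8.06, 8.05 and 7.57), with a step that passed (adjusted p = 0.016). For SLC7A11, sh1319 and then sh1209 in MIA PaCa-2 stood above the rest, and the steps among the 4 other groups did not pass the test.

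Counted over the 12 probes, sh1319 in MIA PaCa-2 gave 7 calls, 6 lower and 1 higher, where 24.3% of all tested probes passed, 12.1% lower and 12.2% higher. In the same line sh1209 gave 4 calls, 3 lower and 1 higher, where 18.0% of all passed, 8.99% lower and 9.05% higher. This count was 1 without the first shCtrl or the first sh1209 array and 2 without the second shCtrl array. In Capan-1 sh1319 gave 5 calls, all lower, where 13.7% of all passed, 6.77% lower and 6.95% higher. This count was 2 to 3 without any 1 of the 4 arrays compared. In Capan-1 sh1209 gave 3 calls, all lower, where 16.8% of all passed, 8.69% lower and 8.14% higher. The medians of the 12 changes were -0.60, -0.15, 0.03 and 0.04 in this order, where those of all probes lay between -0.01 and 0.01. By gene, 3 of the 9 had a probe called lower in each of the 4 pairs, but no gene was called lower in all 4. NQO1 and TXNRD1 were called lower in 3, GCLM and AKR1B10 in 2, and SRXN1 and AKR1C3 in 1. The shares above are by probe, not by gene, and NQO1, GCLM and TXNRD1 could be counted through either of 2 probes. By sign alone, both NQO1 probes and TXNRD1 probe 2320133 were below control in all 4 pairs. So were AKR1B10 and AKR1C3, which were undetected in MIA PaCa-2.

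In the mean of the 4 differences from control, 8 of the 12 probes passed, 7 lower and 1 higher, where 25.2% of all tested probes passed, 12.7% lower and 12.5% higher. The 7 lower were both probes of NQO1 (-0.90 and -0.65), GCLM (-0.38 and -0.46) and TXNRD1 (-0.54 and -0.53) and that of AKR1B10 (-1.28), and the higher was SLC7A11 (0.76). Under median scaling GCLM probe 1990577 was at -0.26 and missed the threshold. For AKR1B10, GCLM and SLC7A11 the mean stands for a change in 1 line, since their changes in the other line did not pass. With the arrays of a group averaged first, so that the spread between hairpins and lines is the error, 0 of the 12 passed in limma, as did 0 of all tested probes. At an unadjusted p under 0.05 there were 1 of the 12 and 1813 of all. The hairpins differed on 7 of the 12 probes in MIA PaCa-2, 5 lower and 2 higher with sh1319, where 22.6% of all passed, 11.5% lower and 11.2% higher. In Capan-1 they differed on 3, 1 lower and 2 higher, where 11.3% of all passed, 5.81% lower and 5.47% higher. The response differed between the lines on 6 of the 12, where 14.4% of all passed, 7.11% lower and 7.24% higher in MIA PaCa-2, and on 3 without the second Capan-1 shCtrl array.

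**Figure D3:**
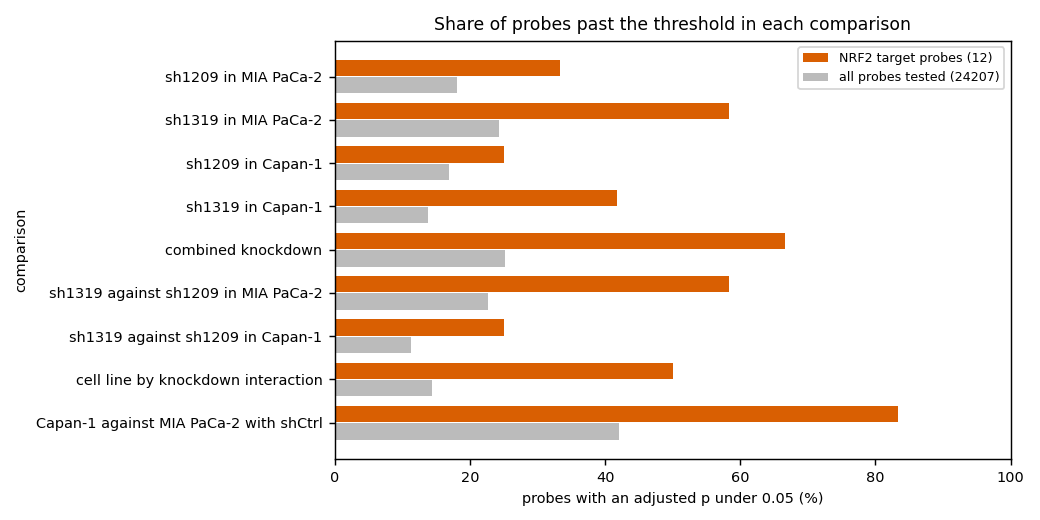
Percent of probes with an adjusted p under 0.05 in each of the 9 comparisons, for the 12 NRF2 target probes and for all 24207 tested probes. The bars of the 12 probes are longer in all 9 comparisons, from 25.0% against 16.8% with sh1209 in Capan-1 to 83.3% against 42.1% between the lines with shCtrl. The genes were chosen with earlier results of these data known, so the bars are a description and no test. The comparisons share arrays, and NQO1, GCLM and TXNRD1 count with both of their probes. The 83.3% includes AKR1B10 and AKR1C3, which passed the detection filter through Capan-1 alone.

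Of the regulators of the pathway, KEAP1 rose in MIA PaCa-2 with both hairpins. Its probe 4570598 was at 7.03 and 7.10 with shCtrl, 7.89 and 7.90 with sh1209 and 7.87 and 7.75 with sh1319 in MIA PaCa-2. The 4 FAK hairpin arrays were above both controls, and changes of 0.83 ± 0.16 and 0.74 ± 0.16 passed (adjusted p = 0.0041 and 0.0058). The Capan-1 levels were 6.81 and 6.90, 7.42 and 7.87, and 6.76 and 7.13. There it rose with sh1209 (0.79 ± 0.16, adjusted p = 0.0063), and with sh1319 the change was 0.09 ± 0.16 (adjusted p = 0.81). The other KEAP1 probe, 3420497, rose in MIA PaCa-2 with both hairpins (0.82 and 0.71, adjusted p = 0.011 and 0.018) and did not pass in Capan-1.

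NFE2L2 (probe 2450064) was at 8.64 and 8.60 with shCtrl, 8.25 and 8.22 with sh1209 and 8.10 and 8.11 with sh1319 in MIA PaCa-2. All 4 FAK hairpin arrays were below both controls, and the change passed with sh1319 (-0.52 ± 0.13, adjusted p = 0.014) and not with sh1209 (-0.39 ± 0.13, adjusted p = 0.064). Its Capan-1 levels were 8.58 and 8.52, 8.71 and 8.78, and 8.39 and 8.78, with changes of 0.19 and 0.03 that did not pass. The change in MIA PaCa-2 minus that in Capan-1, over both hairpins, was -0.56 ± 0.16 (adjusted p = 0.039). BACH1 (probe 1010170) lay between 4.22 and 4.84 on all 12 arrays, around the detection floor of 4.55 to 4.74, and passed in none of the 9 comparisons. Transcript levels do not measure NRF2 protein, which is set mainly by degradation.

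The regulator list had 12 genes, 11 of them tested with 18 probes, and in the mean of the 4 differences 5 probes rose and 1 fell, where 25.2% of all probes passed, 12.5% higher and 12.7% lower. The named members were both KEAP1 probes and 2 proteins that bind KEAP1, DPP3 (0.42 ± 0.08, adjusted p = 0.0022) and the autophagy receptor SQSTM1 (0.29 ± 0.07, adjusted p = 0.0086). DPP3 passed with sh1209 in both lines (0.77 and 0.61) and not with sh1319. Its hairpins differed in MIA PaCa-2 (-0.58, adjusted p = 0.0065) and in Capan-1 (-0.49, adjusted p = 0.031).

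Other NRF2 targets of the thioredoxin and NADPH group gave 1 higher and 2 lower of 13 probes of 8 genes in the mean of the 4 differences, against the same 12.5% and 12.7% of all probes. The lower were the probes of IDH1, a cytosolic source of NADPH (-0.38 ± 0.07 and -0.44 ± 0.08, adjusted p = 0.0017 and 0.0019), and the higher was PRDX1, a peroxiredoxin that thioredoxin reduces (0.22 ± 0.07, adjusted p = 0.039). With sh1319 in MIA PaCa-2, where TXNRD1 fell most, 0 of the 13 probes passed in limma, where 24.3% of all passed, and 3 did at an unadjusted p under 0.05. The median of this list was 0.02 against 0.00 over all probes.

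The detoxification, transport and iron group gave 9 higher and 6 lower of 26 probes of 21 tested genes, against 12.5% and 12.7% of all probes. ABHD4, a lysophospholipase, rose in Capan-1 with both hairpins (0.68 and 1.18). In MIA PaCa-2 its probe was detected on neither shCtrl array, so only bounds can be given: its level was at least 1.45-fold higher for sh1209 (adjusted p = 0.0017 in limma). For sh1319 it was at least 1.86-fold higher (adjusted p = 7.9e-05). AKR1B1, the aldose reductase related to AKR1B10, rose with sh1209 in Capan-1 by 1.24 ± 0.12 (adjusted p = 4e-05), and its change with sh1319 there was -0.09 ± 0.12 (adjusted p = 0.71). In MIA PaCa-2 it rose with both hairpins (1.13 and 0.67, adjusted p = 6.2e-05 and 0.0016). ABCC2, an export pump for conjugates, rose in MIA PaCa-2 with both hairpins (1.31 and 0.76). FTH1, the heavy chain of ferritin, fell in MIA PaCa-2 from 8.96 and 8.86 to 7.15 and 6.81 with sh1209 and to 7.81 and 8.14 with sh1319 (-1.93 ± 0.15 and -0.93 ± 0.15, adjusted p = 4.3e-06 and 0.00066). In Capan-1 FTH1 rose with sh1209 (0.62 ± 0.15, adjusted p = 0.014), and the lines differed in response by -1.62 ± 0.18 (adjusted p = 0.00013). FTH1 has many processed pseudogenes, and which copies its probe reads was not examined.

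Genes of glutathione synthesis and use gave 7 higher and 2 lower of 22 probes of 13 tested genes in the mean of the 4 differences, against 12.5% higher and 12.7% lower over all probes. GPX4, which reduces lipid peroxides with glutathione, rose with sh1319 in MIA PaCa-2 on both probes (0.55 and 0.64, adjusted p = 0.0039 and 0.0014), and with sh1209 there its changes were 0.00 and 0.01. MGST1, a microsomal glutathione transferase, rose in MIA PaCa-2 with both hairpins (0.57 and 0.98). GSTM3, a cytosolic glutathione transferase, rose in Capan-1 with both hairpins (0.77 and 0.83). With sh1319 in MIA PaCa-2, where GCLM fell, 8 of the 22 probes rose and 1 fell, against 12.2% of all probes higher and 12.1% lower. The median of the 22 was 0.16 there, against -0.01 over all probes.

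**Figure D4:**
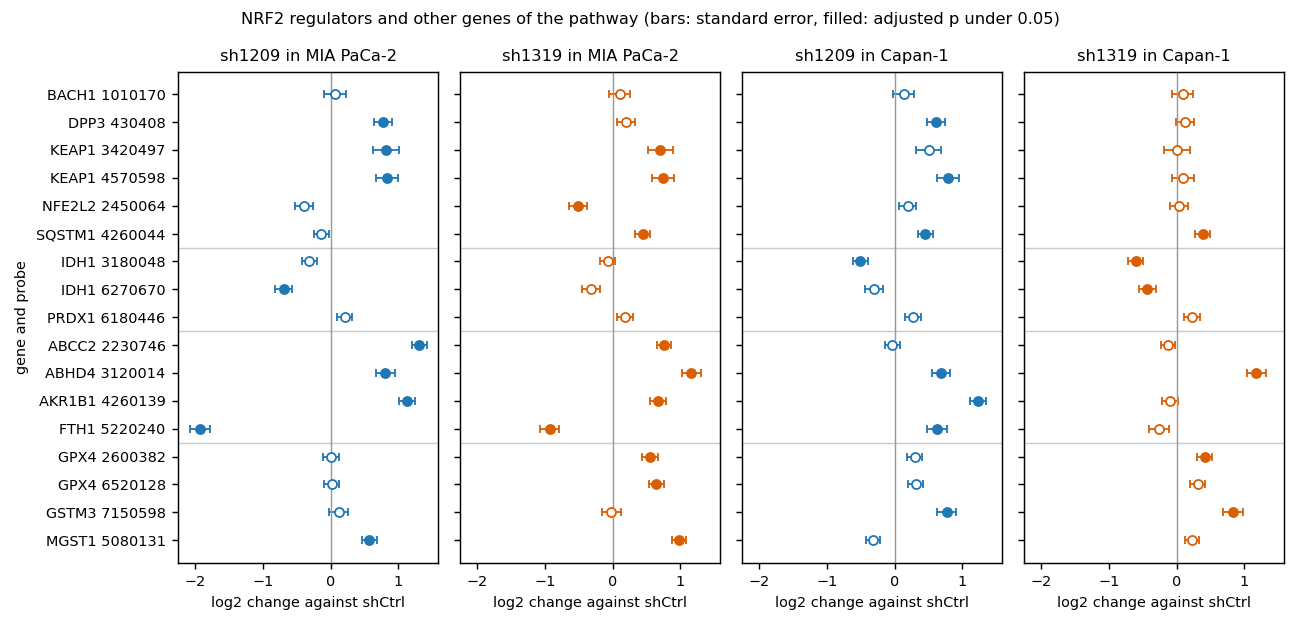
Log2 change against shCtrl, with standard errors, for the NRF2 regulators and the named genes of the other pathway lists, which grey lines separate in the order regulators, thioredoxin and NADPH, detoxification with transport and iron, and glutathione. Filled points passed an adjusted p of 0.05. KEAP1 is higher in MIA PaCa-2 with both hairpins (0.71 to 0.83), and FTH1 is lower there (-1.93 and -0.93). The points of ABHD4 in MIA PaCa-2 are measured against controls with no detected array, and those of ABCC2 in Capan-1 and of BACH1 in MIA PaCa-2 compare undetected values.

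Likeness to the members was measured by a score for each array, the mean over the brightest tested probe of each member, centred on the 6 arrays of its line. In MIA PaCa-2 the score was 0.11 and 0.14 with shCtrl, 0.02 and 0.03 with sh1209 and -0.12 and -0.17 with sh1319. In Capan-1 it was 0.29 and 0.18 with shCtrl, -0.14 and -0.16 with sh1209 and -0.15 and -0.01 with sh1319. AKR1B10 correlated most with the score, at 0.83, and SLC7A11 least, at -0.55. Each member is a term of the score, so these values are partly built in. The terms were not scaled, and AKR1B10 had the largest changes in Capan-1 (-2.78 with sh1209 and -2.22 with sh1319). The score, and likeness to it, therefore lean on that gene there. The 5 other probes with the highest correlation over the 12 arrays were those of MLX (0.972), IRS1 (0.972), PRPF3 (0.970), METT11D1 (0.966) and C20ORF7 (0.962). MLX, a partner of the glucose-sensing MondoA and ChREBP factors, changed by -0.36 and -0.85 in MIA PaCa-2 and by -1.21 and -0.81 in Capan-1 with sh1209 and sh1319. The 12 arrays share 6 groups and 1 chip, and these 5 were the highest of all tested probes.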

How the data were processed

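The 12 arrays were assigned by the sample labels to 6 groups (MIA PaCa-2 and Capan-1, each with shCtrl, sh1209 or sh1319) of 2 arrays. The Capan-1 labels spell sh1319 as shFAK1319, which was taken as the same hairpin. The authors deposited probe intensity on a linear scale with a detection p-value and no normalization, and the submitters' processing notes name GenomeStudio 2011.1. The table had 47320 rows, 92 of them control probes that were dropped once the background had been corrected. limma's nec (normexp from detection p-values, offset 16, which understates changes of dim probes) and quantile normalization gave log2 values. A probe was tested if detected, at p under 0.05, on 2 or more arrays, which kept 24207. Group means were fitted with limma 3.58.1 (lmFit and eBayes, R 4.3.3; 6 residual df). Benjamini-Hochberg adjustment covered all tested probes of a comparison, with calls under 0.05. The number of arrays limits the precision. The fit was tested on simulated data.

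The combined knockdown is the mean of the 4 differences from shCtrl, and the interaction is the mean change in MIA PaCa-2 minus that in Capan-1. A probe detected on no array of a group gave a lower bound of the fold, against the higher of its own value and the lowest detected signal on each array. Changes between groups that both lack detection compare undetected values. Genes named were the 9 members, PTK2, NFE2L2, KEAP1, BACH1, up to 4 called probes of each pathway list by adjusted p in the combined knockdown, and 5 probes by likeness. AKR1C2 was added after its values were seen, and cell type markers check the lines. Members, lists and rules were chosen with earlier results of these data known. Alternatives were uncorrected background, median scaling, testing every probe, a filter at a detection p under 0.01 on all 12 arrays, a replicate block, array weights, each array left out, a fit of 1 cell line, averaged replicates and the t-test of the methods. Probe sequences and positions were not used here. RefSeq promoters are of GRCh38.p14.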

Additional observations from a re-analysis of the deposited data

Results flagged for a closer look

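The response to FAK hairpins was averaged over sh1209 and sh1319. It differed between the lines by limma's interaction test on 6 of the 12 NRF2 target probes, where 14.4% of all tested probes passed. Given as the change in MIA PaCa-2 minus that in Capan-1 on the log2 scale, the values were -0.66 and -1.10 for GCLM, -0.78 and -0.58 for TXNRD1, 1.25 for SLC7A11 and 2.45 for AKR1B10. The calls at -0.66, -0.78 and -0.58 were lost when some single arrays were left out. That at -0.58 was also lost under median scaling (-0.79). AKR1B10 was detected on no MIA PaCa-2 array, so its value is the fall in Capan-1 set against undetected levels. Hairpin strength differed too, since PTK2 was left at 65.4% of control with sh1209 in Capan-1 and at 21.1% in MIA PaCa-2, and its part in these differences was not tested.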

How the results depend on the processing

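Of 53 called member values, none reversed over 971 checks under 20 alternatives; 892 stayed past the threshold and 79 fell short. Of 55 values that had not passed, 20 of 1012 checks passed (9 values), and 42 changed sign with neither passing (22 values, up to 0.25 in size). Counts of called probes of 12 that moved by over 1.5 times were as follows. With sh1209 in MIA PaCa-2 (4), median scaling gave 1, a fit of 1 cell line 2 and leaving out 1 array 1 to 5. With sh1319 in Capan-1 (5), median scaling gave 2, no filter 3, the t-test of the methods without adjustment 3 and leaving out 1 array 2 to 5. The stricter filter, which tests 7 member probes, gave 5 in the combined knockdown (8) and 6 between the lines (10). No background correction gave 5 for the hairpin difference in Capan-1 (3), and leaving out 1 array gave 3 to 6 for the interaction (6). Averaged replicates gave 0 in the combined knockdown. With Benjamini-Hochberg adjustment, the t-test of the methods gave 0 in all 6 comparisons of 2 groups within a line, and without it 3 to 7. The cause was not tested.

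The replicate numbers were not used to pair the samples in the main fit. Deviations of same-numbered arrays correlated at -0.06 to 0.16. In every group the median deposited intensity was higher on the second array than on the first, so an effect shared by same-numbered arrays is not excluded. With the replicate block, sh1319 in Capan-1 gave 3 calls in place of 5, and no other member count moved by over 1.5 times. Median scaling moved the median of all probes by 0.11 with sh1319 in Capan-1 and turned the split of all calls in the combined knockdown from 3023 higher and 3069 lower to 3303 and 934. Dim probes (SLC7A11 in shCtrl, GCLM 4480053 and NQO1 780452 in Capan-1) lie near the floor, where changes are understated.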
